A study of Rattus norvegicus with 15 samples.

Results

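The genes described here encode the transferases of phase II drug metabolism, the glutathione, glucuronosyl and sulfo transferases, in primary rat hepatocytes exposed to flutamide. A gene was included when its symbol in the array's annotation starts with Gsta, Gstk, Gstm, Gsto, Gstp, Gstt, Gstz, Mgst, Ugt1, Ugt2, Ugt3 or Sult and its probe set has a single symbol and gene identifier there. This gave 37 of 14506 genes tested: 17 cytosolic, mitochondrial and peroxisomal glutathione transferases (GST), 2 microsomal ones (MGST), 7 UDP-glucuronosyltransferases (UGT) and 11 sulfotransferases (SULT). No Ugt3 or Gstz symbol was found among the annotated probe sets. No Ugt1 gene was among the 37, since the rat Ugt1a isoforms share a probe set that names 8 genes. Sult1e1 was left out too, since its probe set carries that symbol under 2 gene identifiers.

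The data are 15 Affymetrix rat gene arrays, hybridised with RNA of freshly isolated rat hepatocytes kept in perfused microfluidic biochips. All cells adhered for 24 h in serum medium and were then perfused for 24 h without serum at 25 µl/min and 32 °C. The groups were the solvent DMSO (n = 5), flutamide at 10 µM (n = 6) and flutamide at 100 µM (n = 4); the sources used here do not give strain, sex or age. The titles number the biochips 10 to 16 (title number run 1, with 2 DMSO, 3 10 µM and 2 100 µM arrays) and 20 to 27 (run 2, with 3, 3 and 2); the labels do not say what the numbers stand for. They also do not say whether the biochips hold cells of separate animals, so the p-values cover the spread between these biochips only, which may be technical. Arrays are named here by these numbers.

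Phase II enzymes attach a polar group to drugs, steroids, bile acids and reactive metabolites, so that the product can leave the cell. Glutathione transferases join glutathione to electrophiles, UDP-glucuronosyltransferases add glucuronic acid from UDP-glucuronate, and sulfotransferases add sulfate from the donor PAPS. In the liver many of these genes are known targets of NRF2 (through antioxidant response elements), of the aryl hydrocarbon receptor, of the nuclear receptors CAR and PXR, and of hepatocyte factors such as HNF1 and HNF4. Flutamide, a nonsteroidal antiandrogen, forms reactive metabolites in hepatocytes that can be trapped by glutathione.

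The start-site windows of 3 of the genes are shown as regulatory context: Gsta3, whose difference between 10 µM flutamide and DMSO was called as unequal between the runs, Sult1b1, the gene with the largest fitted difference from DMSO, and Gstp1, the 1 of 37 members whose run 2 arrays all lay below its run 1 arrays (0.407% of all genes). Sequences are RefSeq promoters of GRCr8, 300 bases each, from 250 before to 50 after the annotated start, 5′ to 3′ on the gene's strand. Capitals mark matches on either strand to 4 motifs: TGACNNNGC, an antioxidant response element core; GCGTG, a xenobiotic response element core; AGGTCA, a nuclear receptor hexamer; and GTTAAT, a hexamer bound by HNF1. Gsta3 has 2 annotated starts.
Gsta3, first start, chr9:31154739-31155038, plus strand: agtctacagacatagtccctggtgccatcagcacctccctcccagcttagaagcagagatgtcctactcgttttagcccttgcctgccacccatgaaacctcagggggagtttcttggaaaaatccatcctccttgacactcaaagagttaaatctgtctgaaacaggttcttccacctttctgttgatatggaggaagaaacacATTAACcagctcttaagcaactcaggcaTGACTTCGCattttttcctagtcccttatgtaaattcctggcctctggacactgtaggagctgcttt
Gsta3, second start, chr9:31166793-31167092, plus strand: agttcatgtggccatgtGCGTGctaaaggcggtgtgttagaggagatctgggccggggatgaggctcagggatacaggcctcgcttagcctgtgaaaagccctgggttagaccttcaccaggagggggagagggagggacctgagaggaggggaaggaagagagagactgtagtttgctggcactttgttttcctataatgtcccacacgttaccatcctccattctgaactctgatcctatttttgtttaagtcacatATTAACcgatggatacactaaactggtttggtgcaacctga
Gstp1, chr1:210769656-210769955, minus strand: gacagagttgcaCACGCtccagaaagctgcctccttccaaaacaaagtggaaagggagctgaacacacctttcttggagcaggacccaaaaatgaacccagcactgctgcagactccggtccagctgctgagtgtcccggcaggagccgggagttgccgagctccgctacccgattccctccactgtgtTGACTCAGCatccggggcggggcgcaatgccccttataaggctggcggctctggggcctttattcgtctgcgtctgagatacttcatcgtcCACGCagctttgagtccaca
Sult1b1, chr14:20771667-20771966, plus strand: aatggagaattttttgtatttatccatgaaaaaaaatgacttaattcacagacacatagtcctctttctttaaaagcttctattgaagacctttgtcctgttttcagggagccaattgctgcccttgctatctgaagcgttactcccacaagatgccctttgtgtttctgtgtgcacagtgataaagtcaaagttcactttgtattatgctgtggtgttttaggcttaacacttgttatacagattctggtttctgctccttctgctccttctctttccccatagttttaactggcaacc
The first Gsta3 window held TGACTTCGC and ATTAAC, and its second window held GCGTG and ATTAAC. The Gstp1 window held TGACTCAGC, with CACGC at 2 places. No match lay in the Sult1b1 window. Neither window of Gsto2, the member called between runs, held a match, and its windows are not shown. RefSeq windows were matched for 31 of the 37 genes (33 windows). The antioxidant core occurred in 5 of these windows (15.2%) and in 12.1% of 33469 windows of all genes. The xenobiotic core occurred in 6 (18.2%, against 29.7%), the nuclear receptor hexamer in 3 (9.09%, against 16.2%) and the HNF1 hexamer in 5 (15.2%, against 7.45%). A match describes letters in a window and not a bound site.

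Array medians lay between 5.38 and 5.51, and 1 array was unlike the rest: array 23, at 10 µM, correlated with them at a median of 0.962 (the other arrays at 0.978 to 0.990) and had a limma quality weight of 0.205. The next lowest weights were 0.427 (array 15, 100 µM) and 0.549 (array 24, 10 µM). All 15 hepatocyte markers were measured, and their mean signal lay between 10.77 and 11.43 on every array. The mean of 15 Kupffer cell and macrophage markers was 6.14 to 7.0 in DMSO arrays, 5.83 to 7.59 at 10 µM, with the highest value in array 23, and 5.79 to 6.57 at 100 µM; the brightest of them was Cd14 (mean signal 9.64). The mean over a list's markers was 5.03 to 5.41 for stellate cells, 4.54 to 5.23 for endothelial cells and 5.37 to 5.64 for cholangiocytes, where the median signal of all probe sets was 5.45. The brightest markers of these lists were Acta2 (7.59), Eng (5.80) and Epcam (8.43). Array 23 was also the highest of all arrays for the hepatocyte (11.43), stellate (5.41) and endothelial (5.23) lists, and the lowest for cholangiocytes (5.37). These are bulk samples, in which fewer cells of a type and less RNA per cell cannot be told apart.

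All values below are log2 array signals or differences of them. Probe sets differ in brightness, so signals are compared between arrays and not between genes. The 37 genes spanned the scale: 24 had a mean signal at or above the median of all probe sets, 10 were among the 1000 brightest genes, and 8 had a mean under 4.00, in the dim range. Among the glutathione transferases, Gstm1, a mu-class enzyme abundant in rat liver, had a mean of 12.97 over the 15 arrays. Gstp1, the pi-class enzyme that is scarce in normal rat hepatocytes and known to appear in culture, had a mean of 12.22, and Gsta1, an alpha-class enzyme, had 11.85. The microsomal Mgst1 and Mgst2, membrane-bound enzymes of the endoplasmic reticulum, had means of 11.92 and 11.89. Ugt2b1 (11.53), Ugt2b35 (11.30) and Ugt2b37 (8.56), of a subfamily that glucuronidates steroids and other substrates, were the brightest UGT probe sets. Sult1b1 (8.27), a sulfotransferase of thyroid hormones and small phenols, Sult1c2 (6.95) and the phenol sulfotransferase Sult1a1 (6.52) were the brightest of their family. The dimmest probe sets of the GST, UGT and SULT families were Gstm6 (3.74), Ugt2a1 (3.15) and Sult6b1 (3.13), whose differences are those of signals near the floor of the scale.

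**Figure D1:**
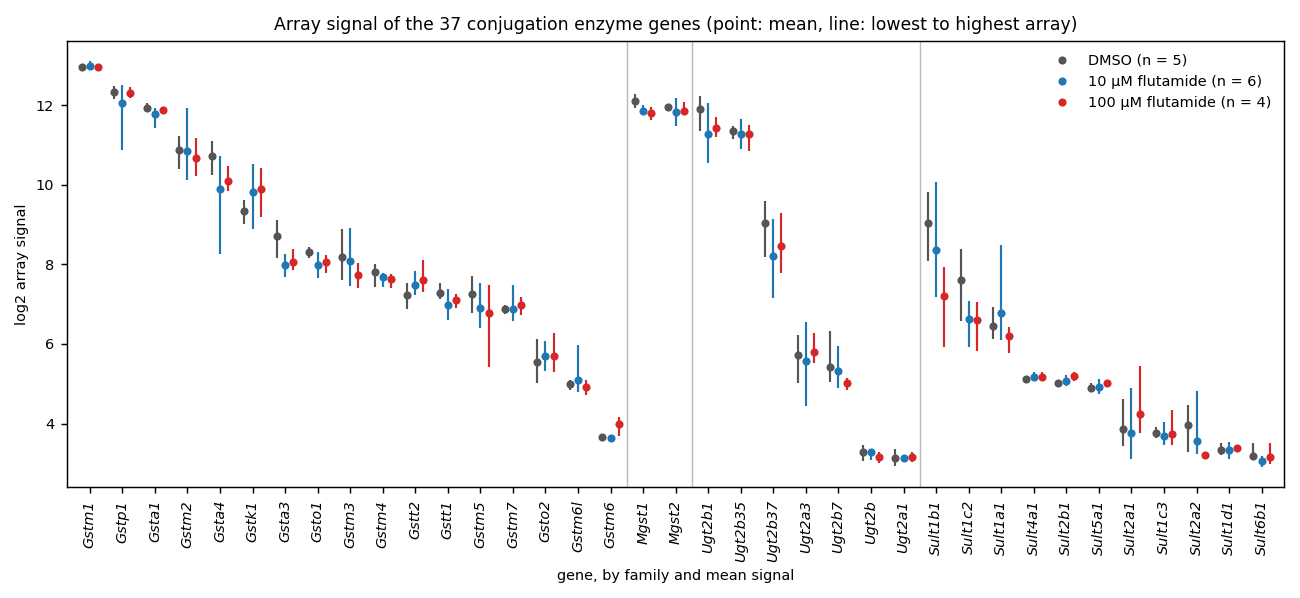
Mean log2 signal of each of the 37 genes in DMSO, 10 µM and 100 µM arrays, ordered by family and mean signal; lines run from the lowest to the highest array. For most genes the 3 groups overlap, and the bright Gstm1 stays near 12.97 in all of them.

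The first question is how far 10 µM flutamide moved these genes. At this dose 25 of the 37 genes had a lower fitted signal than in DMSO (50.9% of all genes) and 12 a higher one, with a median difference of -0.10 (-0.00 over all genes tested). None passed an adjusted p of 0.05 by limma with the run as a block, and neither did any of the 14506 genes (0%). At an unadjusted p under 0.05 stood 9 of the 37, against 7.65% of all genes; 8 of them were lower (3.82% of all genes) and 1 higher (3.83% of all genes). No member's 10 µM arrays lay wholly below its DMSO arrays (0.221% of all genes) or wholly above them (0.414%).

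The glutathione transferases supplied 5 of these 9 genes. Gsta3, an alpha-class enzyme, read 8.29 and 8.17 in the DMSO arrays of run 1 and 9.03, 9.12 and 9.02 in those of run 2. With 10 µM flutamide it read 8.27, 8.20 and 8.27 in run 1 and 7.69, 7.80 and 7.72 in run 2. The treated arrays of run 1 lay among their controls, whereas those of run 2 all lay below theirs. The pooled difference was -0.74 (SE 0.20, adjusted p = 0.350), made of 0.01 within run 1 and -1.32 within run 2. Gsta4, which conjugates reactive aldehydes from lipid peroxidation, read 10.24 and 10.27 in run 1 controls and 11.09, 10.95 and 11.09 in run 2 controls. At 10 µM it read 10.22, 10.57 and 10.73 in run 1 and 8.27, 9.95 and 9.67 in run 2, where array 23 was the lowest. The run 1 arrays ran from just below to above their controls, and those of run 2 all lay below theirs. The pooled difference was -0.86 (SE 0.35, adjusted p = 0.564), and -0.52 (SE 0.24, adjusted p = 0.578) without array 23. A second Gsta4 probe set had group means of 10.43 ± 0.36 (SD, n = 5), 9.62 ± 0.88 (n = 6) and 9.81 ± 0.23 (n = 4) in DMSO, 10 µM and 100 µM arrays.

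Gsto1, an omega-class enzyme with dehydroascorbate reductase activity, differed by -0.33 (SE 0.12, adjusted p = 0.495), with -0.12 in run 1 and -0.51 in run 2. Gstt1, a theta-class enzyme acting on halogenated substrates, differed by -0.32 (SE 0.12, adjusted p = 0.534), with -0.02 and -0.56. The exception in direction was Gstk1, the kappa-class enzyme of mitochondria and peroxisomes. Its signal was 9.01 to 9.61 in the 5 DMSO arrays, 8.88 to 10.03 in the 3 run 1 arrays at 10 µM, and 10.13, 9.95 and 10.52 in the run 2 arrays. The difference was 0.51 (SE 0.23, adjusted p = 0.636), with -0.00 in run 1 and 0.90 in run 2.

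Mgst1, which reduces lipid hydroperoxides in membranes, differed little in size but with little spread. It read 11.93, 12.01, 12.14, 12.28 and 12.17 in DMSO arrays, and 11.75, 11.82 and 12.01 were the lowest, median and highest of the 10 µM arrays. The groups overlapped, and the difference was -0.26 (SE 0.09, adjusted p = 0.488; -0.09 in run 1 and -0.39 in run 2).

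Of the UGT genes 6 of 7 had a lower fitted signal, with a median difference of -0.07. Ugt2b1 read 11.66 and 11.36 in run 1 controls and 12.24, 12.15 and 12.15 in run 2 controls. With 10 µM flutamide it read 10.55, 11.54 and 12.06 in run 1 and 11.04, 11.50 and 10.96 in run 2. The treated arrays of run 1 were spread on both sides of their controls, and those of run 2 all lay below. The pooled difference was -0.62 (SE 0.24, adjusted p = 0.539; -0.12 in run 1 and -1.02 in run 2). For Ugt2b37 the difference was -0.76 (SE 0.32, adjusted p = 0.590; -0.17 and -1.26). Sequence shared among Ugt2b genes can let a probe set read a relative, so these values are uncertain as to the gene.

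Among the SULT genes 6 of 11 had a lower fitted signal (median -0.06). Sult1c2 read 6.58 and 7.28 in run 1 controls and 8.38, 7.83 and 7.94 in run 2 controls, against 7.04, 6.81 and 7.08 in run 1 and 5.92, 6.56 and 6.39 in run 2 at 10 µM. The pattern was that of Gsta3, with treated arrays among the controls in run 1 and below them in run 2. The difference was -0.95 (SE 0.31, adjusted p = 0.465; 0.04 in run 1 and -1.76 in run 2). Sult1b1 read 8.10 and 8.76, then 9.74, 9.83 and 8.73, in DMSO arrays of run 1 and run 2. At 10 µM it read 7.42, 7.19 and 8.36 in run 1 and 10.06, 8.33 and 8.77 in run 2. The groups overlapped in both runs.

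The second question is whether 100 µM moved them further. At this dose 24 of 37 genes had a lower fitted signal than in DMSO (44.3% of all genes), with a median of -0.06 (0.02 over all genes tested). None passed an adjusted p of 0.05 by limma, as none of all genes did (0%). At an unadjusted p under 0.05 stood 9 of 37 genes against 6.85% of all genes: 5 lower (3.42% of all genes) and 4 higher (3.43% of all genes). Both dose comparisons use the same DMSO arrays, so their values are not independent of each other.

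Sult1b1 had the largest fitted difference. Its 100 µM arrays read 5.91 and 7.90 in run 1 and 7.94 and 7.04 in run 2. All 4 lay below the lowest DMSO array (8.10), which held for 1 of 37 members and for 0.931% of all genes. No member had all of its 100 µM arrays above its DMSO arrays (1.13% of all genes). The difference was -1.73 (SE 0.45, adjusted p = 0.510), 3.31-fold lower, with -1.52 within run 1 and -1.94 within run 2. Against 10 µM it was -1.16 (SE 0.43, adjusted p = 0.930), and the 2 treated groups overlapped. Leaving out each array in turn gave -2.15 to -1.46 against DMSO.

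Sult1c2 read 5.82 and 6.93 in run 1 and 7.06 and 6.59 in run 2 at 100 µM, a difference from DMSO of -0.98 (SE 0.35, adjusted p = 0.665; -0.56 and -1.22 within the runs). Sult2a2, a dim hydroxysteroid sulfotransferase of a family whose expression in rat liver is known to be higher in females, read 3.11 to 3.29 at 100 µM against 3.28 to 4.48 in DMSO. The groups met at 3.28 to 3.29. The difference was -0.71 (SE 0.26, adjusted p = 0.682; -0.32 and -1.03 within the runs). Its DMSO arrays read 3.28 and 3.62 in run 1 and 4.08 to 4.48 in run 2.

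Gsta3 read 7.99 and 8.38 in run 1 and 8.04 and 7.86 in run 2 at 100 µM. The run 1 arrays lay on either side of their controls and the run 2 arrays below theirs, as at 10 µM. The pooled difference was -0.66 (SE 0.22, adjusted p = 0.649; -0.04 and -1.11 within the runs). Mgst1 read 11.63 to 11.95 at 100 µM and differed by -0.30 (SE 0.10, adjusted p = 0.649).

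The genes on the higher side at 100 µM were Gstm6, Gstk1, Gstt2 and Sult2b1. Gstm6, a mu-class gene in the dim range, read 4.18 and 3.68 in run 1 and 4.07 and 4.03 in run 2, against 3.60 to 3.68 in DMSO. Of the 4 arrays 3 lay above all controls, and the difference was 0.34 (SE 0.09, adjusted p = 0.510). Gstk1 differed by 0.59 (SE 0.25, adjusted p = 0.715), with 0.02 in run 1 and 1.04 in run 2. Gstt2, a theta-class enzyme, differed by 0.39 (SE 0.18, adjusted p = 0.726), with -0.12 and 0.79. Sult2b1, which sulfates cholesterol and other hydroxysteroids, differed by 0.19 (SE 0.07, adjusted p = 0.682).

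**Figure D2:**
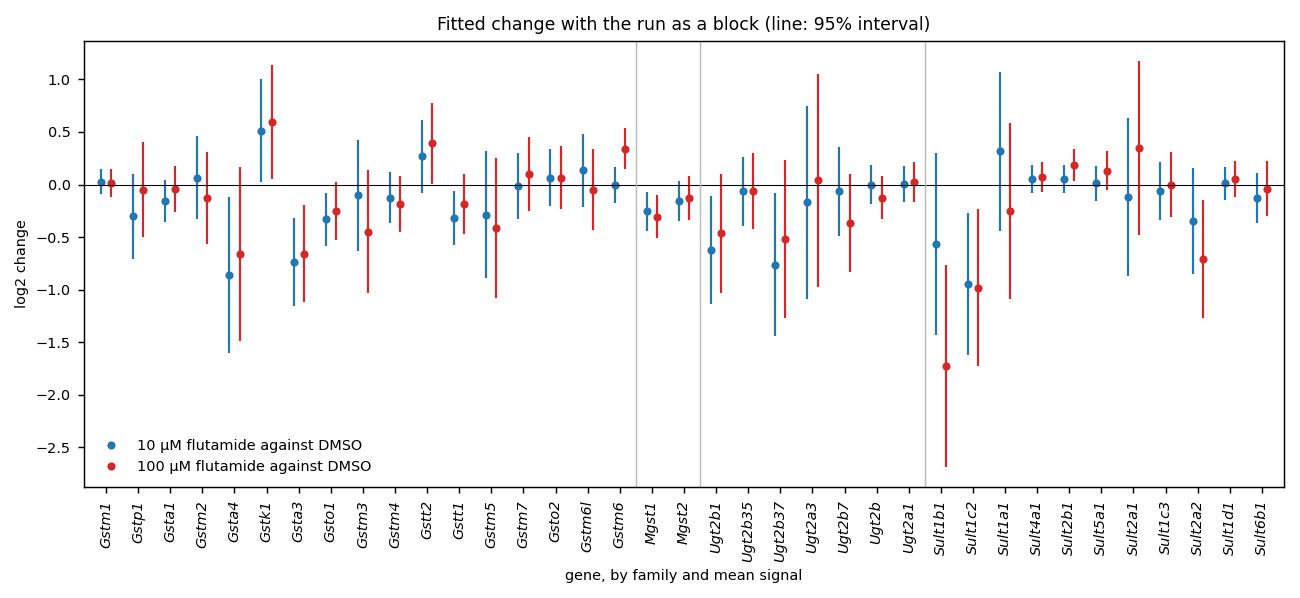
Fitted log2 difference from DMSO of each gene at 10 µM (blue) and 100 µM (red), with its 95% interval from limma and the run as a block. The interval of Sult1b1 at 100 µM reaches lowest, and no gene passed the adjusted threshold.

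The doses were also compared directly. With 100 against 10 µM, 23 of 37 genes were higher and 14 lower (43.5% of all genes were lower), with a median of 0.05 (0.02 over all genes tested). None of the 37 passed an adjusted p of 0.05 (0% of all genes by limma). At an unadjusted p under 0.05 stood 2 of 37, against 4.98% of all genes: Gstm6 on the higher side (0.35, SE 0.09, adjusted p = 0.930; 2.65% of all genes were on that side) and Sult1b1 on the lower (2.34%). No member's 100 µM arrays lay wholly above (0.503% of all genes) or below (0.324%) its 10 µM arrays. Next in order of p were Sult2b1 (0.14), Sult1a1 (-0.57), Sult5a1 (0.12) and Sult2a2 (-0.36). For Sult1a1, array 23 read 8.49 while the other 10 µM arrays read 6.10 to 7.02, and without it the difference was -0.20. Without the same array the difference of Sult2a2 was -0.14.

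The third comparison sets the runs against each other over all groups. Gsto2, an omega-class dehydroascorbate reductase, was the member called, and it was lower in run 2. In run 1 it read 5.96 and 6.14 in DMSO, 5.97, 5.94 and 6.08 at 10 µM, and 5.53 and 6.29 at 100 µM. In run 2 it read 5.30, 5.36 and 5.03 in DMSO, 5.35, 5.46 and 5.33 at 10 µM, and 5.31 and 5.62 at 100 µM. The runs overlapped only through 100 µM array 15 (5.53) and array 27 (5.62). The difference was -0.64 (SE 0.11, adjusted p = 0.0179), or 1.55-fold, and without DMSO array 11 it was -0.59 with an adjusted p of 0.0555. This was 1 of 37 members, against 0.545% of all genes called in either direction and 0.317% called lower in run 2.

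Before adjustment 10 of 37 members stood at a p under 0.05 between runs, against 11% of all genes, 7 higher in run 2 (4.73% of all genes) and 3 lower (6.23%). Gstm2, a mu-class enzyme, was 0.69 higher in run 2 (SE 0.16, adjusted p = 0.0744). Without array 23, where it read 11.92 against 10.13 to 11.22 elsewhere, the difference was 0.56 (adjusted p = 0.0451). Gstp1 was the 1 member whose runs did not overlap over all arrays, with 12.40 to 12.51 in run 1 and 10.88 to 12.38 in run 2. Of all genes, 0.407% lay wholly lower in run 2 and 0.207% wholly higher. The lowest value was that of array 23. The difference was -0.45 (SE 0.16, adjusted p = 0.309), and -0.28 (adjusted p = 0.0378) without that array. Sult1b1 differed by 1.05 (SE 0.35, adjusted p = 0.243), Mgst2, which also has leukotriene synthase activity, by -0.21 (SE 0.08, adjusted p = 0.290), and Gstk1 by 0.51 (SE 0.20, adjusted p = 0.336).

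**Figure D3:**
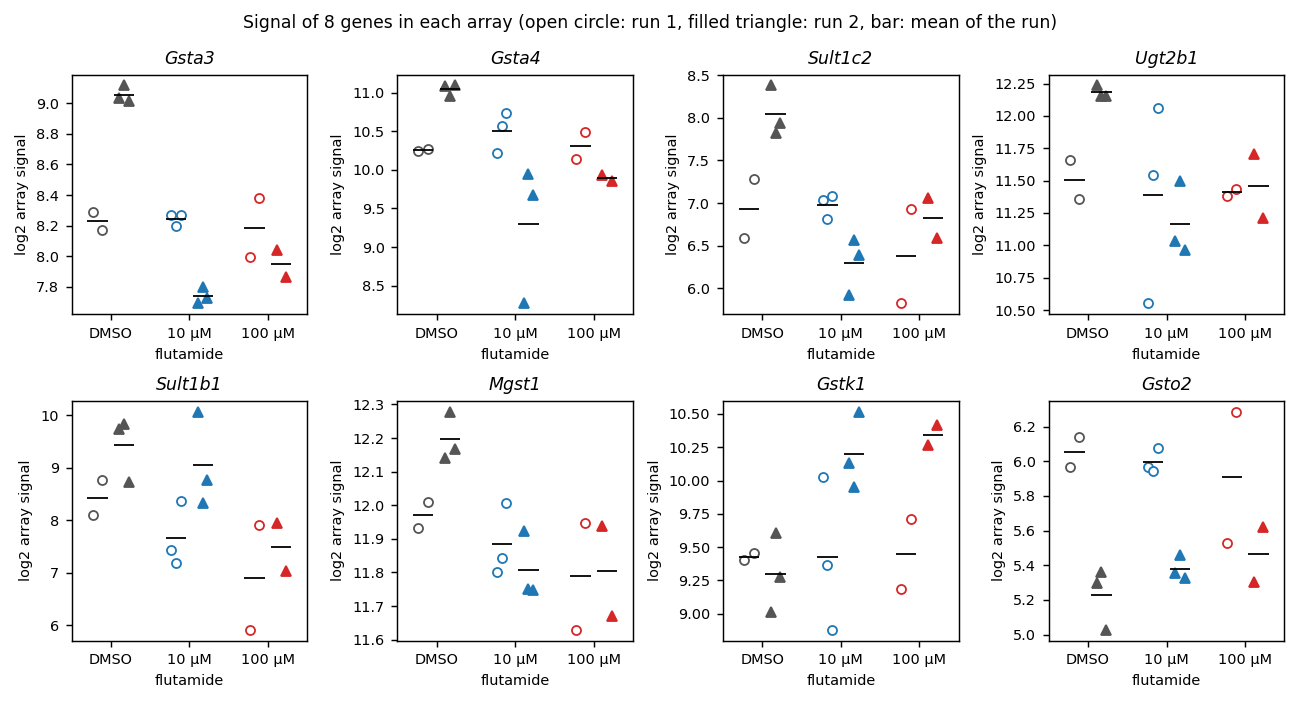
Log2 signal of selected genes on every array by group, with the title number run shown by the marker. The run 2 controls of Gsta3 lie above its run 1 controls, and the 4 arrays of Sult1b1 at 100 µM lie below all of its DMSO arrays.

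The difference from DMSO was itself compared between the runs, by an interaction term in limma. At 10 µM, Gsta3 was called, with a run 2 minus run 1 difference of -1.33 (SE 0.16, adjusted p = 0.0116). Its mean was 8.23 in DMSO and 8.24 at 10 µM in run 1, and 9.06 and 7.74 in run 2. The run 2 controls stood above those of run 1, and the run 2 treated arrays below those of run 1, so both sides of the contrast differed between runs. This was 1 of 37 members, against 0.0414% of all genes called and 0.0345% called lower. It was -1.31 (adjusted p = 0.0360) without array 23, and 0.0640 and 0.0643 were the adjusted p without DMSO array 11 and DMSO array 10. Without 10 µM array 12 or 14 the adjusted p was 0.0531 and 0.0547. Run 1 holds only 2 DMSO arrays.

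At an unadjusted p under 0.05 stood 7 of 37 members for this difference, against 10.2% of all genes: 2 on the higher side (3.56%) and 5 on the lower (6.68%). Sult1c2 had -1.80 (SE 0.43, adjusted p = 0.228) and Gsta4 -2.0 (SE 0.49, adjusted p = 0.234), which was -1.48 (adjusted p = 0.0573) without array 23. At 100 µM no member was called, against 0.00689% of all genes, and 4 of 37 stood at an unadjusted p under 0.05, against 6.08%: 2 on the higher side (2.21%) and 2 on the lower (3.87%). Gsta3 had -1.06 (SE 0.17, adjusted p = 0.139), and -1.26 (adjusted p = 0.0471) without 100 µM array 15. Gstt2 had 0.91 (SE 0.27, adjusted p = 0.716) and Gstk1 1.02 (SE 0.44, adjusted p = 0.799).

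The spread of the differences over the members was wider in run 2. At 10 µM they ran from -0.77 to 0.26 within run 1 and from -1.76 to 0.90 within run 2. More than 0.5 lower were 1 member in run 1 (0.696% of all genes) and 11 in run 2 (7.67%). More than 0.5 higher were 0 members in run 1 (1.19%) and 3 in run 2 (2.81%), and 13 members were lower in both runs (20.3%). At 100 µM the ranges were -1.52 to 0.67 and -1.94 to 1.04, with 3 and 9 members more than 0.5 lower (2.87% and 5.24% of all genes), 1 and 2 more than 0.5 higher (2.08% and 1.72%) and 15 lower in both runs (21.8%). These counts carry no test. The 10 µM counts of run 2 include array 23 and were not repeated without it. For Sult1a1 (0.67 within run 2) array 23 read 8.49 and the others 6.29 and 6.23, against a control mean of 6.33. For Gstp1 (-0.56) it read 10.88 and the others 12.04 and 12.14, against 12.24. Gsta3, in contrast, read 7.69 in array 23 and 7.80 and 7.72 in the others, against 9.06. The Kupffer list had a median difference at 100 µM of -0.04 in run 1 and -0.65 in run 2, and at 10 µM of -0.28 and 0.01; its part in the members' differences was not tested.

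**Figure D4:**
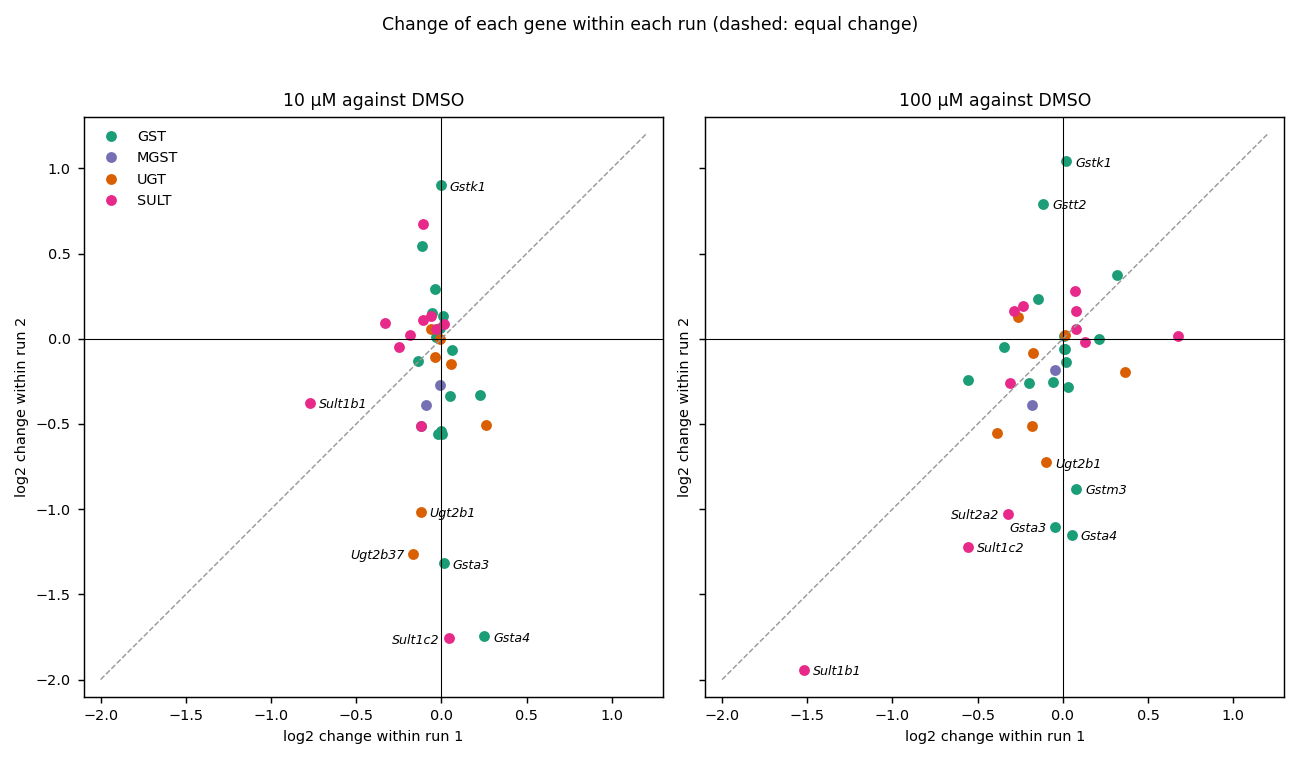
Log2 difference from DMSO of each gene within run 1 (horizontal) and run 2 (vertical), at 10 µM and 100 µM; the dashed line marks equal differences. At 10 µM Gsta3, Gsta4, Sult1c2, Ugt2b1 and Ugt2b37 lie between -0.17 and 0.25 on the run 1 axis and at -1.02 or lower on the run 2 axis, and at 100 µM Sult1b1 lies low on both.

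Genes that supply cosubstrates to these enzymes or export their products were read from lists of the pathway. No gene of these lists was called at either dose by limma. Of all genes tested, 50.9% had a lower fitted signal than in DMSO at 10 µM and 44.3% at 100 µM. All 6 measured genes of the UDP-glucuronate supply list, which also holds the beta-glucuronidase Gusb, had lower fitted signals at both doses, with medians of -0.32 at 10 µM and -0.19 at 100 µM (-0.00 and 0.02 over all genes tested). Of them Ugp2, which makes UDP-glucose, had the lowest p at 10 µM (-0.37, SE 0.16, adjusted p = 0.596), and Slc35b1, a transporter of the endoplasmic reticulum, at 100 µM (-0.21, SE 0.10, adjusted p = 0.754). At 10 µM the median of this list was -0.00 within run 1 and -0.61 within run 2.

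Of the genes for PAPS supply and desulfation 6 of 8 were lower at both doses (medians -0.07 and -0.12), led by the sulfate transporter Slc26a1 (-0.90, SE 0.27, adjusted p = 0.399 at 10 µM and -0.71, SE 0.29, adjusted p = 0.708 at 100 µM). At 10 µM the median of this list was -0.00 within run 1 and -0.38 within run 2. Of the glutathione supply genes 6 of 11 were lower at 10 µM and 9 of 11 at 100 µM, with medians of -0.14 and -0.06. Their median at 10 µM was 0.11 within run 1 and -0.23 within run 2. Gss, glutathione synthetase, had the lowest p at 10 µM (-0.44, SE 0.19, adjusted p = 0.610), and Chac1, which degrades glutathione, at 100 µM (0.52, SE 0.19, adjusted p = 0.682). For Gss at 10 µM, run 2 minus run 1 was -1.03 (SE 0.27, adjusted p = 0.263 by the limma interaction term). Between runs all 11 glutathione supply genes had higher fitted signals in run 2 (median 0.30), and none was called. Of all genes tested, 49.2% had a lower fitted signal in run 2, with a median of 0.002. In the list for the mercapturate route, which trims glutathione conjugates, 7 of 10 genes were lower at 10 µM and 3 of 10 at 100 µM. The list's genes of lowest p were Lancl1, which is not one of the trimming enzymes (-0.21, SE 0.12, adjusted p = 0.728 at 10 µM), and Acy3, an aminoacylase (-0.27, SE 0.13, adjusted p = 0.745 at 100 µM).

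Of the carriers of conjugates and their precursors, 11 of 13 had lower fitted signals at both doses, with medians of -0.28 and -0.26. At 10 µM their median was -0.03 within run 1 and -0.56 within run 2, and at 100 µM -0.15 and -0.34. Slco1b2, the hepatocyte uptake carrier of organic anions, had the lowest p at 10 µM (-0.61, SE 0.15, adjusted p = 0.317) and at 100 µM (-0.81, SE 0.16, adjusted p = 0.356). Abcb1b, a P-glycoprotein, was called between runs and was lower in run 2 (-1.08, SE 0.17, adjusted p = 0.0111). It was 1 of 13 carriers, against 0.545% of all genes called in either direction and 0.317% called lower. The list of other conjugating and hydrolysing enzymes also holds the oxidoreductases Bdh1, Nqo1 and Nqo2. In it 11 and 12 of 14 genes were lower, led by Baat, which conjugates bile acids to amino acids (-0.84, SE 0.21, adjusted p = 0.343 and -0.61, SE 0.23, adjusted p = 0.682). The median of this list at 10 µM was -0.08 within run 1 and -0.10 within run 2. Baat itself differed more between the runs: run 2 minus run 1 was -0.998 at 10 µM (SE 0.35, adjusted p = 0.390 by the limma interaction term). In the list of regulators, which also holds the P450 oxidoreductase Por, 11 and 13 of 22 genes were lower. Hnf4a had the lowest p at 10 µM (-0.62, SE 0.20, adjusted p = 0.439) and Nr1i2, which encodes PXR, at 100 µM (-0.43, SE 0.13, adjusted p = 0.649). Both differences were larger on the lower side in run 2. By the limma interaction term, run 2 minus run 1 was -1.16 for Hnf4a at 10 µM (SE 0.26, adjusted p = 0.2085). For Nr1i2 at 100 µM it was -0.62 (SE 0.22, adjusted p = 0.770).

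Over the 15 arrays, the genes whose signals followed Gsta3 most closely were Ddc (Pearson r = 0.94), Mbl2 (0.92), F5 (0.91), Dgkz (0.90) and Nfkb2 (0.90). For Sult1b1 they were Hadh (0.92), Cyp4a3 (0.91), Akr1e2 (0.91), Slc39a14 (0.90) and Rbm47 (0.89). These are the highest of 14506 genes and a description only, since all genes share the arrays, their quality and the runs.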

How the data were processed

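The values are the log2 signals of 15 arrays in the table the authors deposited. The submitters' processing notes name RMA and Partek for it, and the sources used here do not give their versions, order or settings. Quantile normalization within RMA sets array medians nearly equal, so a shift shared by most genes could not show. Of 29214 probe sets 15310 had 1 gene symbol in the platform annotation and 323 had several symbols or gene identifiers, which were left out; 15279 were matched by gene identifier to RefSeq genes of GRCr8. For 527 genes with several probe sets the one of highest mean was taken, leaving 14506. The files held 0 columns of other samples.

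Groups were compared with limma 3.58.1 in R 4.3.3 (lmFit, eBayes; group plus title number run, 11 residual degrees of freedom), with p-values adjusted by Benjamini-Hochberg over the 14506 genes and calls made under 0.05. Differences between runs in the effect of a dose were tested with a group by run interaction. The median half-width of a 95% interval for 10 µM against DMSO was 1.18-fold; the number of arrays limits the precision. The test of each dose against DMSO was checked on simulated data, which held no difference between runs. The run comparison and the interaction test were not checked in this way.

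Members and lists were chosen with earlier results of these data known. Named genes were the members called in any comparison, the 6 of lowest p in each of the main comparisons, the 3 of lowest p in each run difference, the 3 brightest and the dimmest of each family, Gsta3 and Sult1b1, called genes and the gene of lowest p of each pathway list, and the 5 genes that followed Gsta3 or Sult1b1 most closely. Other members at an unadjusted p under 0.05 were named after their values were seen. Alternatives were no run term, the run as a random block, each run alone, array weights, renewed quantile normalization, dim genes left out, the mean of a gene's probe sets, eBayes with trend and robust, the arrays 15, 23 and 24 left out, and each array left out in turn.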

Additional observations from a re-analysis of the deposited data

Results flagged for a closer look

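In 5 of 75 sets of values, 1 gene in 1 group, an array lay outside Dixon's 95% limit; chance gives about 1 in 20, here 3.75. In the 10 µM group array 23 was the outlying one 3 times: it was high for Sult2a2 (4.81, next array 3.48), low for Gstp1 (10.88, next 12.04) and high for Gstm1 (13.11, next 12.98). This is also the array of lowest quality weight, 0.205. The dim Sult6b1 was high in DMSO array 10 (3.52, next 3.15) and in 100 µM array 26 (3.51, next 3.07).

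The difference of Gsta3 between 10 µM and DMSO was called as unequal between the title number runs by the interaction test: -1.33 (run 2 minus run 1; limma, adjusted p = 0.0116, 15 arrays). The call was lost without DMSO array 10 or 11, without 10 µM array 12 or 14, and with trend and robust (limma, adjusted p 0.0531 to 0.0643). Run 1 holds only 2 DMSO arrays. All 3 treated arrays of run 2 lay below all 3 of its controls, and those of run 1 lay among theirs.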

How the results depend on the processing

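No paired analysis was possible because the groups share no title numbers. Over the alternatives run, no member was called for 10 µM against DMSO except 1, Gsta3, with run 2 alone (-1.32, adjusted p = 0.00691), and none for 100 µM against DMSO or against 10 µM. Within run 1 alone the 10 µM difference changed sign for Gsta3 (0.0127) and Sult1c2 (0.0435). Between runs 2 members were called with array weights and 2 without arrays 15, 23 and 24; leaving out each array gave 0 (without DMSO array 11) to 3 (without 10 µM array 23). For the run difference at 10 µM 2 were called with weights, 0 with trend and robust (Gsta3, adjusted p = 0.0574), and 0 to 1 with an array left out; at 100 µM 1 with weights, 1 without the 3 arrays, and 0 to 1 with an array left out.

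Counts at an unadjusted p under 0.05, whose alternatives were chosen after seeing the data, were 0 at 10 µM and 1 at 100 µM with run 1 alone and 5 at 10 µM without the 3 arrays; an array left out gave 5 (without DMSO array 22) to 10 at 10 µM and 7 to 11 at 100 µM. The member median at 10 µM was -0.0344 with run 1 alone, -0.164 without dim genes and -0.119 to -0.0238 (without 10 µM array 12) with an array left out. At 100 µM it was -0.186 without dim genes and -0.129 to -0.0557 with an array left out. For 100 against 10 µM it was -0.0407 with run 1 alone and 0.0118 to 0.107 with an array left out. Leaving out dim genes leaves 24 members, which changes what the median covers; the cause of the other shifts was not tested. Run 1 has 2 DMSO arrays and both runs 2 arrays at 100 µM, which limits every value within a run.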

Other observations

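Probe sets that name several genes of these families were outside the tests. The probe set shared by 8 Ugt1a genes read 11.39 ± 0.05 (SD, n = 5) in DMSO, 11.27 ± 0.20 (n = 6) at 10 µM and 11.37 ± 0.11 (n = 4) at 100 µM. A pair of probe sets for Gsta5 and Gsta2 read 12.74 ± 0.09, 12.63 ± 0.12 and 12.66 ± 0.06, and 12.58 ± 0.08, 12.45 ± 0.23 and 12.56 ± 0.10, in the same order. A pair shared by Sult1c2a and Sult1c2 read 8.23 ± 0.75, 7.25 ± 0.30 and 7.33 ± 0.63, and 7.57 ± 0.67, 6.70 ± 0.28 and 6.58 ± 0.65. In the first of this pair the run 1 means were 7.46 in DMSO and 7.45 at 10 µM, and the run 2 means 8.75 and 7.04. The set shared by Ugt2b15 and Ugt2b37 read 11.68 ± 0.16, 11.43 ± 0.19 and 11.50 ± 0.22. The probe set with 2 gene identifiers for Sult1e1, the estrogen sulfotransferase, read 3.91 ± 0.64, 4.02 ± 1.01 and 3.80 ± 0.72. The set shared by Sult2a2 and Sult2a6 read 4.15 ± 0.65, 3.76 ± 0.22 and 3.69 ± 0.17. Probe sets of near-identical genes can read each other's transcripts, so these values cannot be given to 1 gene.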
